A study of Mus musculus with 12 samples.

Results

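The Hox genes of the 4 mouse clusters were examined in colonies grown from the stem cell niche of the mouse incisor. The list held 38 Hox genes, taken by symbol: 10 of cluster a, 10 of cluster b, 9 of cluster c and 9 of cluster d. A gene was counted as measured where the accession of an array probe mapped to its symbol, which gave 45 probes of 35 genes. Of these, 34 passed the filter on dim probes and were tested among 31064 genes. Hoxd8 was measured but not tested, because its probe was well above background on 2 of 4 wild-type arrays and on none of the mutant arrays. Hoxc4, Hoxc6 and Hoxc11 had no matched probe and were not analysed here. The data are 12 one-colour Agilent arrays of the whole mouse genome, each of 1 colony, with 4 colonies per genotype. The genotypes were wild type (labelled WT), Bmi1 null (labelled Bmi1-) and double null (labelled Bmi1-;Ink4a/Arf-, which lacks Bmi1 and the Ink4a/Arf locus), all on a mixed genetic background. The colonies were grown in culture from dental epithelium of the labial cervical loop, and every group is made of single colonies rather than fresh tissue. Neither the age nor the number of the animals was given, and p-values measure the spread between colonies, and fewer cells of a type cannot be told apart from less RNA per cell.

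Hox genes encode homeodomain transcription factors that set the identity of body segments along the head-to-tail axis. They lie in 4 clusters in which low-numbered (anterior) genes are switched on earlier and nearer the head than high-numbered (posterior) genes, and genes of the same number in different clusters are paralogs with overlapping roles. The incisor grows from the first pharyngeal arch, which is known to form without Hox expression. Bmi1 is a subunit of Polycomb repressive complex PRC1, which keeps Hox clusters silent where they are not used, and loss of Bmi1 is known to shift Hox domains in the vertebral column. The comparison asks how the level of each Hox gene differed in colonies without Bmi1, and whether removing Ink4a/Arf as well changed that. Against wild type most Hox genes measured lower, not higher, in both mutants, as the values of each cluster show.

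The promoters of 4 genes are shown because they stand for the patterns that follow: Hoxa3 and Hoxd12, which were lower in both mutants on every scale tried, Hoxb4, the gene not called in Bmi1 null, and Hoxa5, the gene that was higher in double null than in Bmi1 null. The windows cover the gene start, most of each lying upstream of it, and come from RefSeq on build GRCm38.p6. They are written from 5′ to 3′ on the strand of the gene, with every CG dinucleotide in capitals, the site of DNA methylation and of CpG islands. The Hoxa3 window is chr6:52213018-52213317 on the minus strand and holds 20 CG. The Hoxa5 window is chr6:52204538-52204837 on the minus strand and holds 29 CG. The Hoxb4 window is chr11:96318017-96318316 on the plus strand and holds 14 CG. The Hoxd12 window is chr2:74674763-74675062 on the plus strand and holds 13 CG.
Hoxa3 promoter window: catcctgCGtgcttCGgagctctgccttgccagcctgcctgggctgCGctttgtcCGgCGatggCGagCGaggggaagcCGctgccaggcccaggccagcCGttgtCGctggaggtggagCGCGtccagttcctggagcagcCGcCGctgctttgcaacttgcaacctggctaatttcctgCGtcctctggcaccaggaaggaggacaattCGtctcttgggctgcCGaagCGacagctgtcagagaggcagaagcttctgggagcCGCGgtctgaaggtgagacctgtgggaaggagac
Hoxa5 promoter window: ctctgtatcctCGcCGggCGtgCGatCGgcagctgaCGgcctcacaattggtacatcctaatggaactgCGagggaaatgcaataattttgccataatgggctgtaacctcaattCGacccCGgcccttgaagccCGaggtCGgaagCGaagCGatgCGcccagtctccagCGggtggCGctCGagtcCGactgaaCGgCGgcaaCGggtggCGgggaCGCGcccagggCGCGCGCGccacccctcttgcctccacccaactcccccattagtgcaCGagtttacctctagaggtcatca
Hoxb4 promoter window: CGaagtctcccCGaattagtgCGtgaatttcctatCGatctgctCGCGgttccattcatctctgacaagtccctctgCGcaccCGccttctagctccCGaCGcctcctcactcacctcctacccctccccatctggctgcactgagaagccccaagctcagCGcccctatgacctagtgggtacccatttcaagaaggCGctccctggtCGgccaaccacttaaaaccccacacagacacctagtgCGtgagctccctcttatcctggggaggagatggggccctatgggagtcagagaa
Hoxd12 promoter window: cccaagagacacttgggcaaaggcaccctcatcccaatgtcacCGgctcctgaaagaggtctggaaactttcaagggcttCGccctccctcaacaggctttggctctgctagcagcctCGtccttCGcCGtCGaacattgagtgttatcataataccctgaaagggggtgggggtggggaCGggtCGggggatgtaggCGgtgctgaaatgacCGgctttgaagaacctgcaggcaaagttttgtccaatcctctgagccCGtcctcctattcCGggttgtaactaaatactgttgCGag
In all, 24 windows of 22 listed Hox genes were at hand. Their median was 14.5 CG per window, against 7 over 32851 windows of all genes, and 17 of the 24 (70.8%) held at least 10 CG, against 43.5% of all windows. TATAAA on either strand stood in 4 Hox windows (16.7%, against 13.6% of all windows). TGATTNAT on either strand, the core of a joint site of a Hox protein and its Pbx partner, stood in 2 Hox windows (8.33%, against 3.22%). TTTATN on either strand, a core that posterior Hox proteins bind, stood in 9 Hox windows (37.5%, against 39.9%). Every match of TATAAA is also a match of TTTATN on the other strand. The printed windows of Hoxa3, Hoxa5, Hoxb4 and Hoxd12 hold none of these motifs.

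Array quality and labels were examined first. Wild-type arrays had a median signal of 109 to 210, Bmi1 null arrays of 82.9 to 190 and double null arrays of 63.4 to 150. The local background was 17 to 23, and 0 spots were saturated. Wild-type arrays spread their genes over a narrower range: the interquartile range in log2 units was 2.56 ± 0.06 for wild type, 4.52 ± 0.18 for Bmi1 null and 4.69 ± 0.36 for double null (SD, n = 4). The share of spots well above background was 94.6% ± 2.70 for wild type, 82.5% ± 3.49 for Bmi1 null and 80.0% ± 5.39 for double null (SD, n = 4). The log2 change of Bmi1 was -2.09 ± 0.23 in Bmi1 null and -2.26 ± 0.23 in double null (± SE, limma adjusted p = 3.96e-06 and 1.79e-06). Relative to the median change of all genes, which that test does not take off, the values were -0.85 and -0.86. The Bmi1 probe was still well above background on all 12 arrays. Cdkn2a, the Ink4a/Arf gene, was well above background on 0 of 4 wild-type, 4 of 4 Bmi1 null and 0 of 4 double null arrays. Of the 13 epithelial markers tested, such as the epithelial transcription factor Trp63, the adhesion protein Cdh1 and the hemidesmosome integrin Itgb4, all were well above background on every array, with a median percentile of 90.9 to 98.5, so the defining markers of the labelled tissue were present.

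Hox genes ranked lower in the expression profile of both mutants than in wild type. The percentile of a gene is the rank of its probe among all probes of the array, in percent. All 35 measured Hox genes had a value on each array except double null replicate 1, where 29 had. Their median percentile was 51.9 to 59.6 on wild-type arrays (mean 55.6 ± 3.28) and 31.6 to 35.0 on Bmi1 null arrays (32.8 ± 1.54). On double null arrays it was 28.3 to 34.5 (31.5 ± 2.62, SD, n = 4), with the 28.3 from replicate 1. The wild-type arrays did not overlap those of either mutant, and the mutants overlapped each other. Between 10 and 12 Hox genes stood above the 75th percentile of a wild-type array, against 0 to 2 of a Bmi1 null array and 0 to 1 of a double null array. Between 34 and 35 Hox genes were well above background on a wild-type array, 25 to 27 on a Bmi1 null array and 22 to 26 on a double null array. Double null replicate 1 gave 26 of its 29. Over all spots the mean shares well above background were 94.6%, 82.5% and 80.0%.

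**Figure D1:**
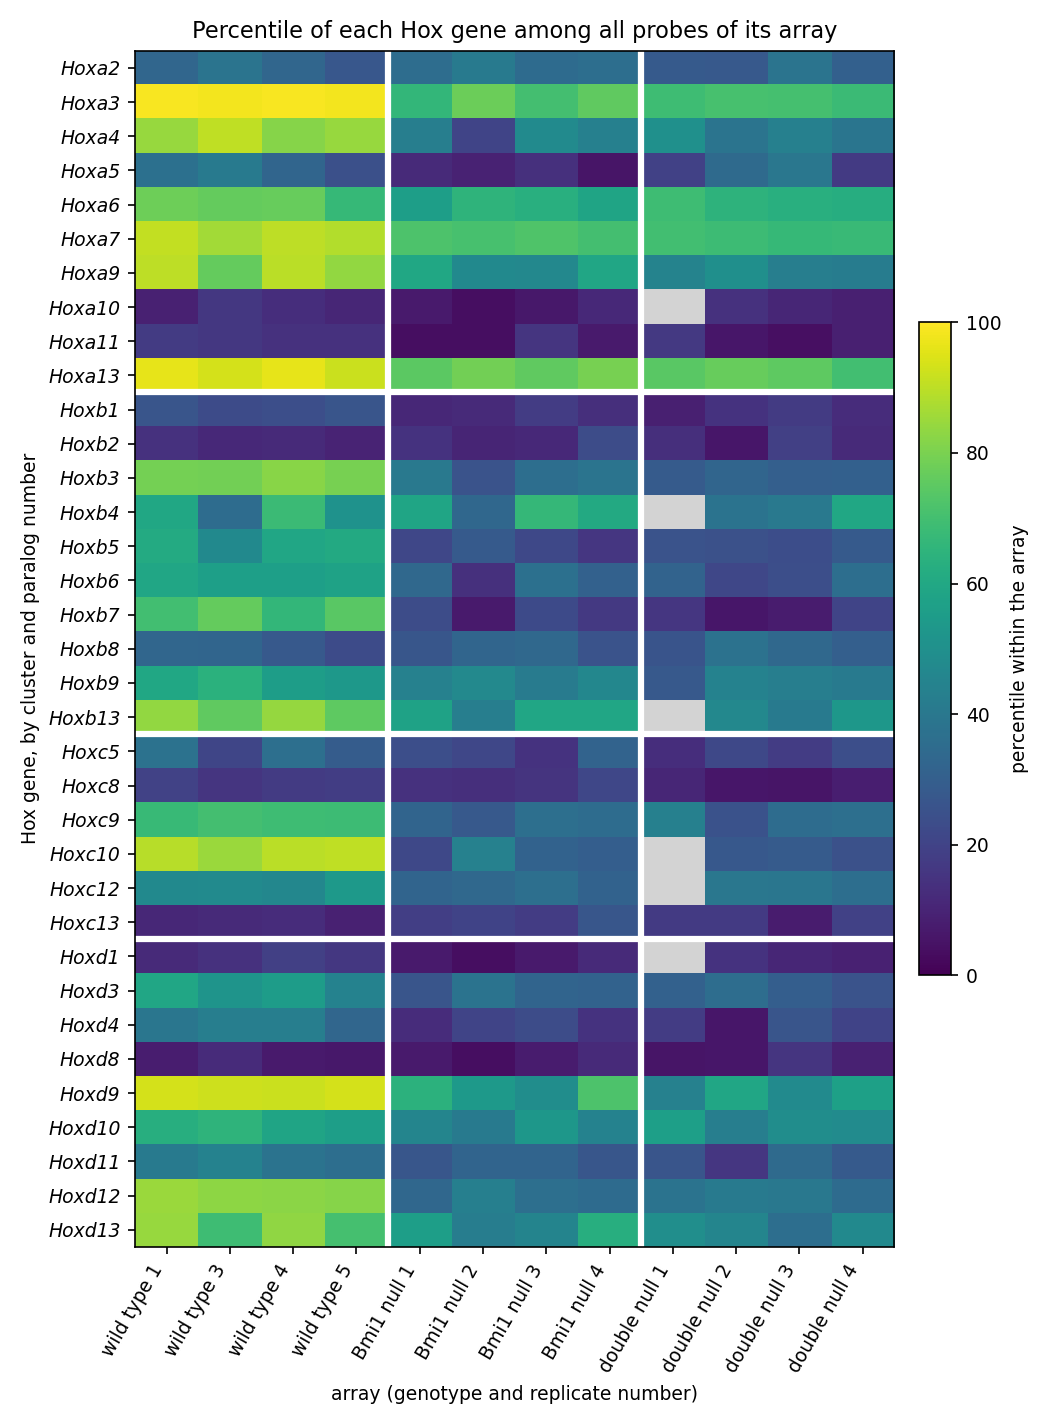
Heat map of the percentile of each of the 35 measured Hox genes (rows, by cluster and paralog number) on each of the 12 arrays (columns, by genotype and replicate); grey marks a spot left out as an outlier. The wild-type columns are brighter for most genes, with Hoxa3 at 98.1 to 99.1, and the median Hox percentile is 51.9 to 59.6 in wild type against 28.3 to 35.0 in the mutants.

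Against wild type, limma called 33 of the 34 tested Hox genes lower and 0 higher in Bmi1 null (adjusted p under 0.05, 33 at an unadjusted p under 0.05), and Hoxb4 was not called. The background was large: 58.3% of all genes tested were called lower in this comparison and 25.2% higher. In double null 34 of 34 were called lower and 0 higher (34 at an unadjusted p under 0.05), against 59.9% of all genes lower and 25.5% higher. The 2 comparisons share the wild-type arrays. Hoxa10, Hoxa11, Hoxb1, Hoxb2, Hoxb7, Hoxc8 and Hoxd1 were well above background on at least 3 of 4 arrays in wild type only. They passed the filter on dim probes through the group where they are high, which favoured a call as lower in advance. These genes are counted in the totals and medians here and below, and their p-values below carry the same limit. The median change of all genes was itself -1.24 in Bmi1 null and -1.41 in double null on the log2 scale set by the 75th percentile of each array, and this shift moves with the scaling. Changes are therefore given relative to it, as log2 change minus the median change of all genes tested, while calls and adjusted p-values are those of the fit before the shift was taken off. On that relative scale the median Hox gene stood at -1.45 in Bmi1 null (range -4.39 for Hoxb7 to 0.58 for Hoxb4) and at -1.91 in double null (range -4.74 for Hoxb7 to 0.47 for Hoxa6). In each comparison 33 of the 34 lay below 0.

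With each array centred on the median of the genes tested, so that the relative change itself is tested, 28 Hox genes were called lower and 0 higher in Bmi1 null, against a background of 37.6% lower and 39.3% higher (limma, 6 not called: Hoxa2, Hoxa6, Hoxa7, Hoxb4, Hoxb8 and Hoxc13). In double null 29 were called lower and 0 higher, against 38.1% lower and 39.0% higher, and Hoxa6, Hoxa7, Hoxb4, Hoxb8 and Hoxd10 were not called. In the authors' processed values 25 Hox genes were called lower in Bmi1 null (background 38.2%), and 25 in double null (background 38.5%). The percentiles of the 4 mutant and 4 wild-type arrays did not overlap for 24 Hox genes lower and 1 higher in Bmi1 null, against 35.7% of all genes lower and 30.9% higher. The gene on the higher side was Hoxc13, a regulator of hair and nail keratins. For double null 22 were lower and 0 higher without overlap, against 35.2% and 31.1%. Across 6 scales (75th percentile, median, quantile, normexp, the authors' values and the centred arrays) 22 genes were called lower on all 6 in Bmi1 null and 22 in double null. The share of all genes called lower on all 6 was not computed, so these counts have no background beside them. The 75th percentile, median and centred scales differ only by a constant for each array, so they are not separate checks. The genes not called lower on all 6 were Hoxa2, Hoxa6, Hoxa7, Hoxa10, Hoxa11, Hoxb2, Hoxb4, Hoxb8, Hoxc5, Hoxc8, Hoxc13 and Hoxd1 in Bmi1 null. In double null they were Hoxa2, Hoxa5, Hoxa6, Hoxa7, Hoxa10, Hoxa11, Hoxb2, Hoxb4, Hoxb8, Hoxc13, Hoxd1 and Hoxd10. The size of a change, and the order of genes by it, moved with the scale, so values from quantile normalization, normexp and the authors' processed values stand beside those that they alter most. Of the genes given below without a bound, some were well above background on only part of the mutant arrays: Hoxb2 on 1 of 4 of each mutant, Hoxb5 on 3 of 4 of each, Hoxb6 and Hoxc5 on 3 of 4 in Bmi1 null and 2 of 4 in double null, Hoxd4 on 2 of 4 and 3 of 4, Hoxb1 on 2 of 4 in Bmi1 null, Hoxd11 on 3 of 4 in double null and Hoxa11 and Hoxc13 on 1 of 4 in double null. Whether the narrower range of the wild-type arrays had a part in the falls was not tested, and array range and wild-type genotype cannot be told apart here.

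**Figure D2:**
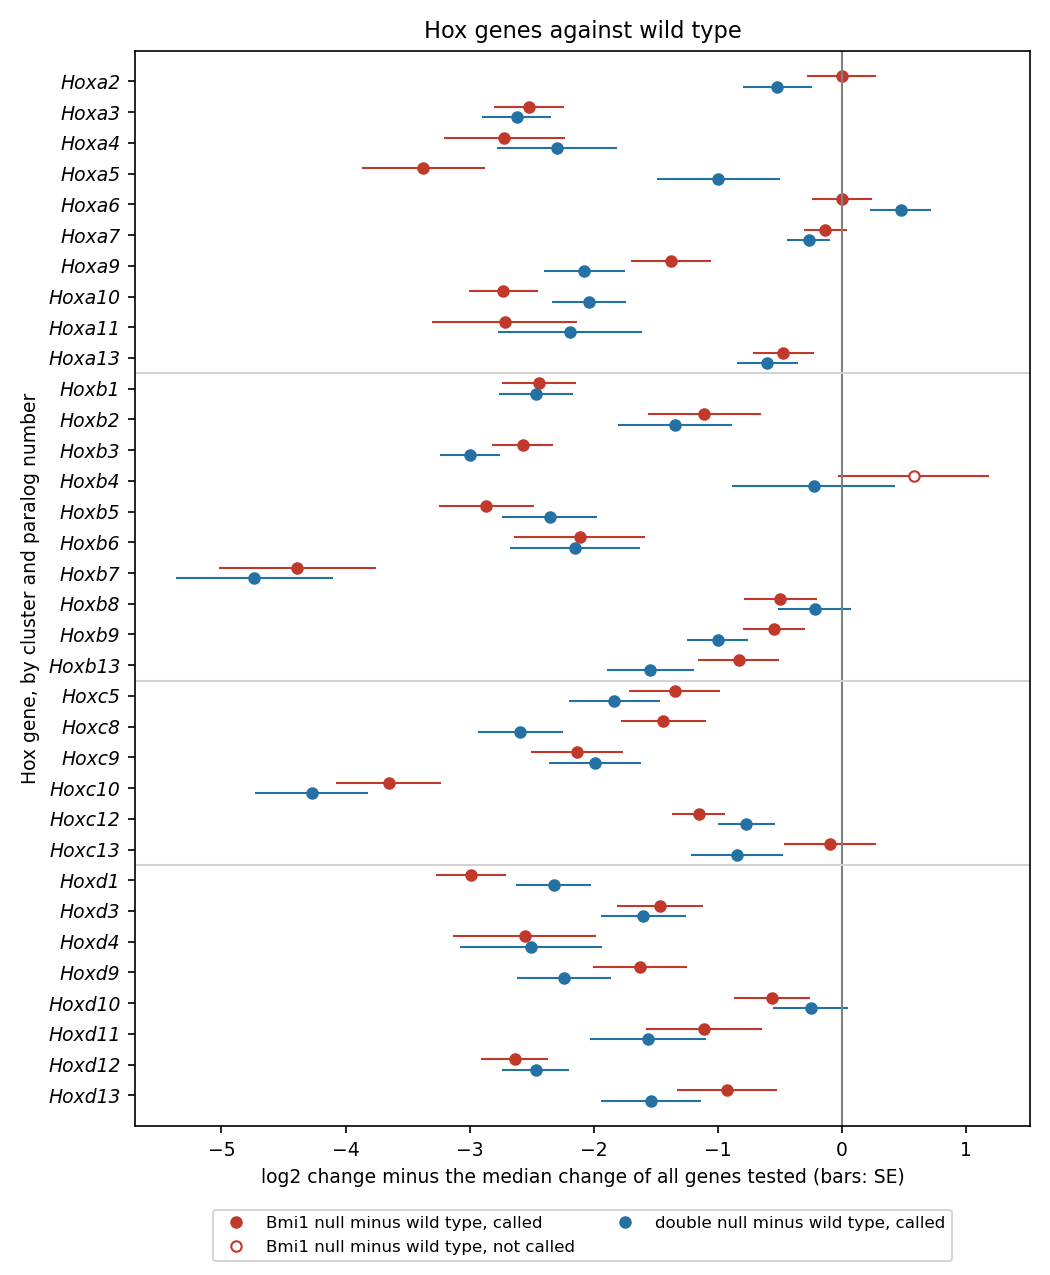
Change of each of the 34 tested Hox genes in Bmi1 null (red) and double null (blue) against wild type, as log2 change minus the median change of all genes tested, with SE bars; filled points were called by limma and open points were not. Most points lie left of 0, the median gene, with Hoxb7 farthest at -4.39 and -4.74. Hoxb7 passed the filter on dim probes through wild type only. Hoxa6, Hoxa7, Hoxb4 and Hoxb8 were not called on centred arrays in either mutant. Calls shown are those before the median change was taken off.

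In cluster a, all 10 genes tested were called lower in both mutants, where 58.3% and 59.9% of all genes were. On centred arrays 7 of 10 were called lower in Bmi1 null and 8 of 10 in double null, against 37.6% and 38.1% of all genes. The relative median was -1.95 in Bmi1 null and -1.52 in double null. Hoxa3 is needed for the third pharyngeal arch, thymus and parathyroid. Levels are log2 signals minus the 75th percentile of the array, so that 0 is the 75th percentile. The Hoxa3 level was 3.86, 3.02, 4.03 and 3.18 in wild type, -0.81, 0.25, -0.45 and 0.05 in Bmi1 null and -0.52, -0.40, -0.42 and -0.68 in double null. All wild-type colonies stood above all mutant colonies, and the mutants overlapped. Relative to all genes Hoxa3 fell by 2.52 ± 0.28 in Bmi1 null (adjusted p = 1.73e-07 by limma) and fell by 2.62 ± 0.28 in double null (adjusted p = 9e-08). Its percentile went from between 98.1 and 99.1 in wild type to between 66.3 and 77.5 in Bmi1 null and between 68.2 and 70.9 in double null.

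Hoxa13, which acts in digits and the genital tract, also kept a signal well above background on all 12 arrays. Its level was 2.24, 1.65, 2.30 and 1.44 in wild type, -0.03, 0.34, 0.05 and 0.43 in Bmi1 null and -0.06, 0.17, 0.03 and -0.55 in double null. The wild-type colonies were again all higher, with relative changes of -0.47 ± 0.25 in Bmi1 null (limma adjusted p = 3.2e-05, 0.038 on centred arrays) and -0.60 ± 0.25 in double null (adjusted p = 7.4e-06, 0.011 on centred arrays). The size depended on the scale: Hoxa13 was at -2.19 and -2.45 under quantile normalization and at -2.45 and -2.69 in the authors' values in the 2 mutants, lower on all 6 scales. Hoxa7, a gene of thoracic segments, was 1.27, 0.73, 1.17 and 1.02 in wild type, -0.28, -0.36, -0.23 and -0.45 in Bmi1 null and -0.45, -0.62, -0.74 and -0.70 in double null. Every mutant colony was below every wild-type colony, yet relative to all genes the values were -0.14 ± 0.17 and -0.27 ± 0.17, and neither was called on centred arrays (adjusted p = 0.229 and 0.0542). Hoxa7 was called lower on the other 5 scales in both mutants, at -1.56 and -1.82 under quantile normalization and at -1.73 and -2.04 in the authors' values. Its neighbour Hoxa6 was 0.16, 0.07, 0.09 and -0.44 in wild type, -1.71, -0.84, -1.04 and -1.49 in Bmi1 null and -0.54, -0.96, -1.12 and -1.24 in double null. Here the relative values were -0.0003 ± 0.24 and 0.47 ± 0.24, uncalled on centred arrays (adjusted p = 0.629 and 0.167). The direction in double null turned with the scale, since Hoxa6 lay below the median gene, and was called lower, under quantile normalization (-0.92 in Bmi1 null and -0.63 in double null), with normexp (-0.19 and -0.22) and in the authors' values (-0.996 and -0.80).

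Hoxa5, which patterns the airway and lung, fell in both mutants. Its level was -1.85, -1.67, -2.09 and -2.64 in wild type, -6.59, -6.88, -5.95 and -7.28 in Bmi1 null and -4.75, -3.83, -3.29 and -5.99 in double null. The 3 genotypes formed 3 steps, with the Bmi1 null and double null colonies meeting at the values -5.95 and -5.99. The probe was not well above background on any Bmi1 null array, so the fall there is a bound, at least 14.0-fold on the 75th percentile scale (limma adjusted p = 2.95e-06) and at least 5.95-fold once the median change of all genes was taken off. For such a bound, each dim array was given the probe's own value or the dimmest value still well above background there, whichever was higher, and the mean of these was set against the mean of the bright genotype. Such bounds hold for the 75th percentile scale only, and in the authors' values Hoxa5 was at -0.77 in Bmi1 null. In double null the relative value was -0.998 ± 0.50 (adjusted p = 0.000559, 0.0417 on centred arrays), and the call was lost under quantile normalization (-0.49) and in the authors' values (-0.07). Hoxa10, a gene of uterus and hindlimb, was -3.82, -3.34, -3.44 and -3.86 in wild type, -7.91, -7.81, -7.63 and -6.99 in Bmi1 null and -6.72, -6.81 and -7.66 in double null, where replicate 1 was left out as an outlier spot. No mutant array was well above background, so on this scale Bmi1 null was at least 4.78-fold lower (adjusted p = 1.93e-07) and double null at least 3.76-fold lower (n = 3, adjusted p = 8.27e-07), or at least 2.03-fold and 1.42-fold with the median change taken off. On other scales the fall of Hoxa10 was not seen: it was at -0.11 and -0.14 in the authors' values, called in neither mutant, and at 0.21 with normexp in double null, not called. By percentile the genotypes of Hoxa10 overlapped, between 9.24 and 16.2 in wild type and between 3.53 and 11.6 in Bmi1 null. Hoxa10 passed the filter on dim probes through wild type only. Its -7.81 on Bmi1 null replicate 2 was the lowest value of that array, shared by 1481 genes.

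The rest of cluster a spanned both patterns. Hoxa4 had relative values of -2.72 ± 0.49 and -2.30 ± 0.49 in the 2 mutants and Hoxa9, a gene of blood progenitors, of -1.38 ± 0.33 and -2.08 ± 0.33, each lower on all 6 scales. Hoxa11, which acts in forearm and uterus, was at least 5.83-fold lower in Bmi1 null on the 75th percentile scale (at least 2.47-fold with the median change taken off), where it was not well above background on any array, and at -2.19 ± 0.58 in double null. In the authors' values it was at -0.11 and -0.04, called in neither. Hoxa11 passed the filter on dim probes through wild type only. Hoxa2, which gives the second pharyngeal arch its identity, was at -0.0043 ± 0.27 and -0.52 ± 0.27. Under quantile normalization and in the authors' values the direction of the Hoxa2 change in Bmi1 null, before the shift is taken off, turned to 0.33 and 0.05, neither called.

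In cluster b, 9 of the 10 genes tested were called lower in Bmi1 null and 10 of 10 in double null, against 58.3% and 59.9% of all genes. On centred arrays 8 of 10 were called lower in each mutant, against 37.6% and 38.1% of all genes. The relative medians were -1.61 and -1.85. Hoxb7, a gene of trunk segments, fell far in both mutants. Its level was -0.29, 0.08, -0.45 and -0.04 in wild type, -4.90, -7.68, -4.69 and -5.94 in Bmi1 null and -5.20, -7.50, -7.05 and -5.51 in double null. The wild-type colonies lay close together, and every mutant colony was far below them. The relative change was -4.39 ± 0.63 in Bmi1 null (limma adjusted p = 4.28e-06) and -4.74 ± 0.63 in double null (adjusted p = 1.84e-06). On the 75th percentile, median and centred scales these were the lowest values of any Hox gene. Under quantile normalization Hoxb7 was lowest in double null (-5.20), but Hoxc10 in Bmi1 null (-4.60, against -4.499 for Hoxb7). With normexp the lowest were Hoxc10 in Bmi1 null (-2.72, against -2.003 for Hoxb7) and Hoxa3 in double null (-3.20, against -1.93), and in the authors' values Hoxa3 in both (-4.58 and -4.72, against -2.79 and -3.02). Hoxb7 was well above background on 2 of 4 arrays of each mutant, so it passed the filter on dim probes through wild type only. Its value on double null replicate 2 was the lowest of that array, shared by 2954 genes. Among them were 6 Hox genes (Hoxa11, Hoxb2, Hoxb7, Hoxc8, Hoxd4 and Hoxd8), so that values there have no order. On Bmi1 null replicate 2 the lowest value, -7.81, was likewise shared by 1481 genes, among them Hoxa10, Hoxa11, Hoxd1 and Hoxd8.

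Hoxb3, a hindbrain gene, was 0.25, 0.21, 0.46 and 0.29 in wild type, -3.12, -4.27, -3.36 and -3.29 in Bmi1 null and -3.82, -4.03, -4.21 and -4.33 in double null. The groups were far apart from wild type and close to each other. Relative to all genes Hoxb3 fell by 2.57 ± 0.24 in Bmi1 null (adjusted p = 5.53e-08) and fell by 2.996 ± 0.24 in double null (adjusted p = 1.72e-08). Hoxb5, known from the enteric nervous system and blood stem cells, was -0.70, -1.36, -0.80 and -0.76 in wild type, -5.11, -3.99, -4.81 and -6.14 in Bmi1 null and -4.12, -4.92, -5.03 and -4.59 in double null. It fell by 2.87 ± 0.38 in Bmi1 null (adjusted p = 9.49e-07) and fell by 2.35 ± 0.38 in double null (adjusted p = 1.67e-06), and no mutant colony reached the wild-type range.

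Hoxb4, a gene that expands blood stem cells, was the exception. Its level was -0.78, -1.99, -0.36 and -1.20 in wild type, -1.47, -3.48, -0.74 and -1.28 in Bmi1 null and -3.46, -3.19 and -1.50 in double null, with replicate 1 left out as an outlier spot. All 3 genotypes overlapped. The relative value was 0.58 ± 0.61 in Bmi1 null (adjusted p = 0.322) and -0.23 ± 0.66 in double null (n = 3, adjusted p = 0.0346, 0.697 on centred arrays). By percentile it stood between 35.3 and 68.2 in wild type, between 33.5 and 66.7 in Bmi1 null and between 38.2 and 59.7 in double null. The lowest wild-type colony (replicate 3) and the lowest Bmi1 null colony (replicate 2) were on the same slide, slide 2.

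Hoxb13, a prostate and tail gene, was 0.57, 0.03, 0.61 and -0.00011 in wild type, -1.59, -2.66, -1.39 and -1.45 in Bmi1 null and -2.62, -3.16 and -2.16 in double null, where replicate 1 was left out. Both mutants lay wholly below wild type, with relative values of -0.83 ± 0.32 (adjusted p = 9.07e-05) and -1.54 ± 0.35 (n = 3, adjusted p = 9.13e-06). Hoxb1, the gene of the fourth rhombomere, was printed in 10 spots on each array. It passed the filter on dim probes through wild type only. Its level was between -2.78 and -2.42 in wild type, between -6.75 and -5.34 in Bmi1 null and between -6.81 and -5.96 in double null. The spots of an array differed by an SD of 0.074 to 0.162 for wild type, 0.438 to 1.56 for Bmi1 null and 0.657 to 1.05 for double null. On replicate 2 of each mutant, which gave the 1.56 and the 1.05, some spots sat at the array's lowest value. That value was -7.81 in Bmi1 null and -7.50 in double null. The SD between colonies was 0.149, 0.643 and 0.367. Hoxb1 was at least 8.14-fold lower in double null on the 75th percentile scale (adjusted p = 1.9e-07; at least 3.07-fold with the median change taken off) and had a relative value of -2.44 ± 0.30 in Bmi1 null (adjusted p = 3.13e-07). The remaining genes were Hoxb6 at -2.11 ± 0.53 and -2.15 ± 0.53, Hoxb9 at -0.55 ± 0.25 and -1.002 ± 0.25, Hoxb2 at -1.11 ± 0.46 and -1.35 ± 0.46 and Hoxb8 at -0.50 ± 0.30 and -0.22 ± 0.30 in Bmi1 null and double null. Hoxb2 and Hoxb8 overlapped with wild type by percentile in both mutants, and their direction turned under quantile normalization.

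In cluster c, 6 of 6 genes tested were called lower in both mutants, where 58.3% and 59.9% of all genes were. On centred arrays 5 of 6 were called lower in Bmi1 null and 6 of 6 in double null, against 37.6% and 38.1% of all genes. The relative medians were -1.40 and -1.91. Hoxc10, a gene of lumbar segments and the hindlimb, was 1.04, 0.64, 1.14 and 1.22 in wild type, -5.04, -2.54, -3.78 and -4.15 in Bmi1 null and -4.61, -4.41 and -4.98 in double null, with replicate 1 left out. Every mutant colony lay far below every wild-type colony. The relative change was -3.65 ± 0.42 in Bmi1 null (limma adjusted p = 9.02e-07) and -4.27 ± 0.46 in double null (n = 3, adjusted p = 4.61e-07), and the percentile went from between 84.9 and 90.3 to between 21.8 and 44.1 and between 24.9 and 28.6.

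Hoxc8, a gene of brachial and thoracic segments, was -2.83, -3.41, -3.03 and -3.11 in wild type, -6.17, -6.02, -5.73 and -5.18 in Bmi1 null and -6.02, -7.50, -7.15 and -7.71 in double null. It was well above background on every wild-type array and on no mutant array, so it passed the filter on dim probes through wild type only. The -7.50 on double null replicate 2 was the lowest value of that array, shared by 2954 genes. On the 75th percentile scale Bmi1 null was at least 6.30-fold lower (adjusted p = 1.26e-05) and double null at least 5.72-fold lower (adjusted p = 4.37e-07), or at least 2.67-fold and 2.16-fold with the median change taken off. In the authors' values Hoxc8 was at -0.03 in Bmi1 null, not called, and at -0.24 in double null, called lower. Hoxc9, which sets thoracic motor neuron identity, had relative values of -2.14 ± 0.37 and -1.99 ± 0.37. Hoxc5 was at -1.35 ± 0.37 and -1.84 ± 0.37, and Hoxc12 at -1.15 ± 0.21 and -0.77 ± 0.23 (n = 3 in double null). Hoxc13 was at -0.10 ± 0.37 and -0.85 ± 0.37. Its direction in Bmi1 null turned under quantile normalization (1.32, adjusted p = 0.00427) and in the authors' values (0.38, adjusted p = 0.0135), where it was called higher, and its percentile was between 9.28 and 12.9 in wild type and between 17.8 and 26.9 in Bmi1 null.

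In cluster d, 8 of 8 genes tested were called lower in both mutants, where 58.3% and 59.9% of all genes were. On centred arrays 8 of 8 were called lower in Bmi1 null and 7 of 8 in double null, against 37.6% and 38.1% of all genes. The relative medians were -1.55 and -1.92. Hoxd9, a trunk and limb gene, was 1.67, 1.45, 1.43 and 1.70 in wild type, -1.01, -1.71, -2.23 and -0.28 in Bmi1 null and -2.56, -1.48, -2.51 and -1.76 in double null. Both mutants lay wholly below wild type, and the relative change was -1.63 ± 0.38 in Bmi1 null (limma adjusted p = 1.61e-05) and -2.24 ± 0.38 in double null (adjusted p = 1.99e-06). The second probe of Hoxd9 did not show this. It read -0.32, -1.07, -0.44 and -1.24 in wild type, -0.24, -3.04, -0.88 and 0.56 in Bmi1 null and -1.64, -2.04, -1.32 and -1.84 in double null, and was not called in Bmi1 null (adjusted p = 0.838) or double null (adjusted p = 0.147).

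Hoxd1, known from pain-sensing neurons, was -3.53, -3.53, -2.92 and -3.27 in wild type, -7.90, -7.81, -7.48 and -6.98 in Bmi1 null and -6.68, -6.81 and -7.65 in double null, with replicate 1 left out. With no mutant array well above background, on the 75th percentile scale Bmi1 null was at least 5.90-fold lower (adjusted p = 1.42e-07) and double null at least 4.64-fold lower (n = 3, adjusted p = 5.27e-07), or at least 2.5008-fold and 1.75-fold with the median change taken off. In the authors' values Hoxd1 was at -0.29 and -0.0091, called in neither mutant, and with normexp at 0.16 in double null, not called. Hoxd1 passed the filter on dim probes through wild type only. Its -7.81 on Bmi1 null replicate 2 was the lowest value of that array, shared by 1481 genes. Hoxd4, a hindbrain and neck gene, was -1.74, -1.60, -1.58 and -2.13 in wild type, -6.41, -4.86, -4.61 and -6.35 in Bmi1 null and -4.94, -7.50, -4.68 and -5.58 in double null. It stood apart from wild type in every mutant colony, at -2.56 ± 0.57 in Bmi1 null (adjusted p = 4.98e-05) and -2.51 ± 0.57 in double null (adjusted p = 3.48e-05). The -7.50 of Hoxd4 on double null replicate 2 was the lowest value of that array, shared by 2954 genes.

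Of the digit genes at the posterior end, Hoxd12 had the steepest relative fall, to -2.64 ± 0.27 and -2.47 ± 0.27, with a percentile between 81.7 and 85.2 in wild type, between 33.3 and 43.2 in Bmi1 null and between 34.9 and 41.1 in double null. Its promoter window is among those printed above. Hoxd13, the gene of the outermost digits, was at -0.93 ± 0.40 and -1.54 ± 0.40, Hoxd11 at -1.11 ± 0.47 and -1.57 ± 0.47, and Hoxd10 at -0.56 ± 0.30 and -0.25 ± 0.30. Hoxd3 was at -1.47 ± 0.34 and -1.60 ± 0.34. The untested Hoxd8 read between -4.49 and -3.75 in wild type, between -7.90 and -6.97 in Bmi1 null and between -7.62 and -6.31 in double null, which places it near or under background in all 3 genotypes.

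By paralog number, the order of the medians turned with the scale. On the 75th percentile scale the anterior genes of groups 1 to 4 had relative medians of -2.48 in Bmi1 null and -2.31 in double null over 10 genes. The central genes of groups 5 to 8 had medians of -1.44 and -1.84 over 9 genes, and the posterior genes of groups 9 to 13 of -1.15 and -1.57 over 15 genes. In the authors' values the medians ran the other way, at -0.70, -0.996 and -1.73 in Bmi1 null and at -0.69, -0.799 and -1.96 in double null from anterior to posterior. Under quantile normalization the posterior genes were again lowest, at -1.85 in Bmi1 null and -2.39 in double null, against -1.38 and -1.47 for the anterior genes. These are descriptions of a few genes each, and the ranges overlapped widely: -2.99 to 0.58, -4.39 to -0.0003 and -3.65 to -0.10 in Bmi1 null. Paralogs of group 3 (Hoxa3, Hoxb3, Hoxd3) were called lower on all 6 scales, and on the 75th percentile scale ran from -2.57 to -1.47 in Bmi1 null and from -2.996 to -1.60 in double null. Group 10 (Hoxa10, Hoxc10, Hoxd10) spread wider on that scale, from -3.65 to -0.56 and from -4.27 to -0.25. In group 7 the values were far apart, with Hoxb7 at -4.39 and Hoxa7 at -0.14 in Bmi1 null. Group 13, with 4 genes, ran from -0.93 to -0.10 in Bmi1 null and from -1.54 to -0.60 in double null.

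A second probe was on the array for 10 genes. These were Hoxa3, Hoxa4, Hoxa13, Hoxb3, Hoxb8, Hoxb9, Hoxc10, Hoxd3, Hoxd9 and Hoxd13, and both probes were tested for all but Hoxb8. Both were called in 8 of 9 in each comparison with wild type, the exception being Hoxd9, and in 0 of 9 between the mutants. Of all genes 58.3% were called lower and 25.2% higher in Bmi1 null, and 59.9% and 25.5% in double null. Between the mutants the shares were 4.8% and 2.75%. The share of all genes with both probes called was not computed, so these counts do not measure agreement between probes. The size of the change differed by probe. Relative to the median of all probes, Hoxa13 was at -0.79 by the probe that stood for it and at -4.49 by the other in Bmi1 null. In the same order Hoxc10 was at -3.97 and -1.49. Hoxb9 was at -0.87 and -2.93 in Bmi1 null and at -1.34 and -3.16 in double null. In wild type the 2 probes of Hoxb3 read 4.83 log2 units apart, so the level read for a Hox gene depends on its probe.

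Arrays of different genotypes shared slides, which allowed the comparison within a slide. The Hox median relative to all genes for Bmi1 null minus wild type was -1.33 on slide 1 (2 arrays of each genotype) and -1.72 on slide 2 (1 of each), with 33 of 34 genes below 0 on both. For double null minus wild type it was -1.93 on slide 2 (1 of each), with 32 of 34 below 0. Hoxb4 was at 0.62 on slide 1 and -0.56 on slide 2 for Bmi1 null minus wild type, of opposite sign.

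Between the mutants few Hox genes were called. In double null against Bmi1 null limma called 1 Hox gene higher, Hoxa5, and 1 lower, Hoxc8, with 32 not called (8 of the 34 at an unadjusted p under 0.05). Over all genes 2.75% were called higher and 4.8% lower. The relative median was -0.23, with 22 genes below 0 and 12 above, and the median change of all genes was -0.07. Arrays did not overlap by percentile for 1 Hox gene higher (Hoxa5, background 6.82%) and 2 lower (Hoxa7 and Hoxc8, background 6.85%), while on the log2 scale all 34 overlapped. Medians by cluster were 0.07 in cluster a, -0.39 in b, -0.65 in c and -0.14 in d.

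**Figure D3:**
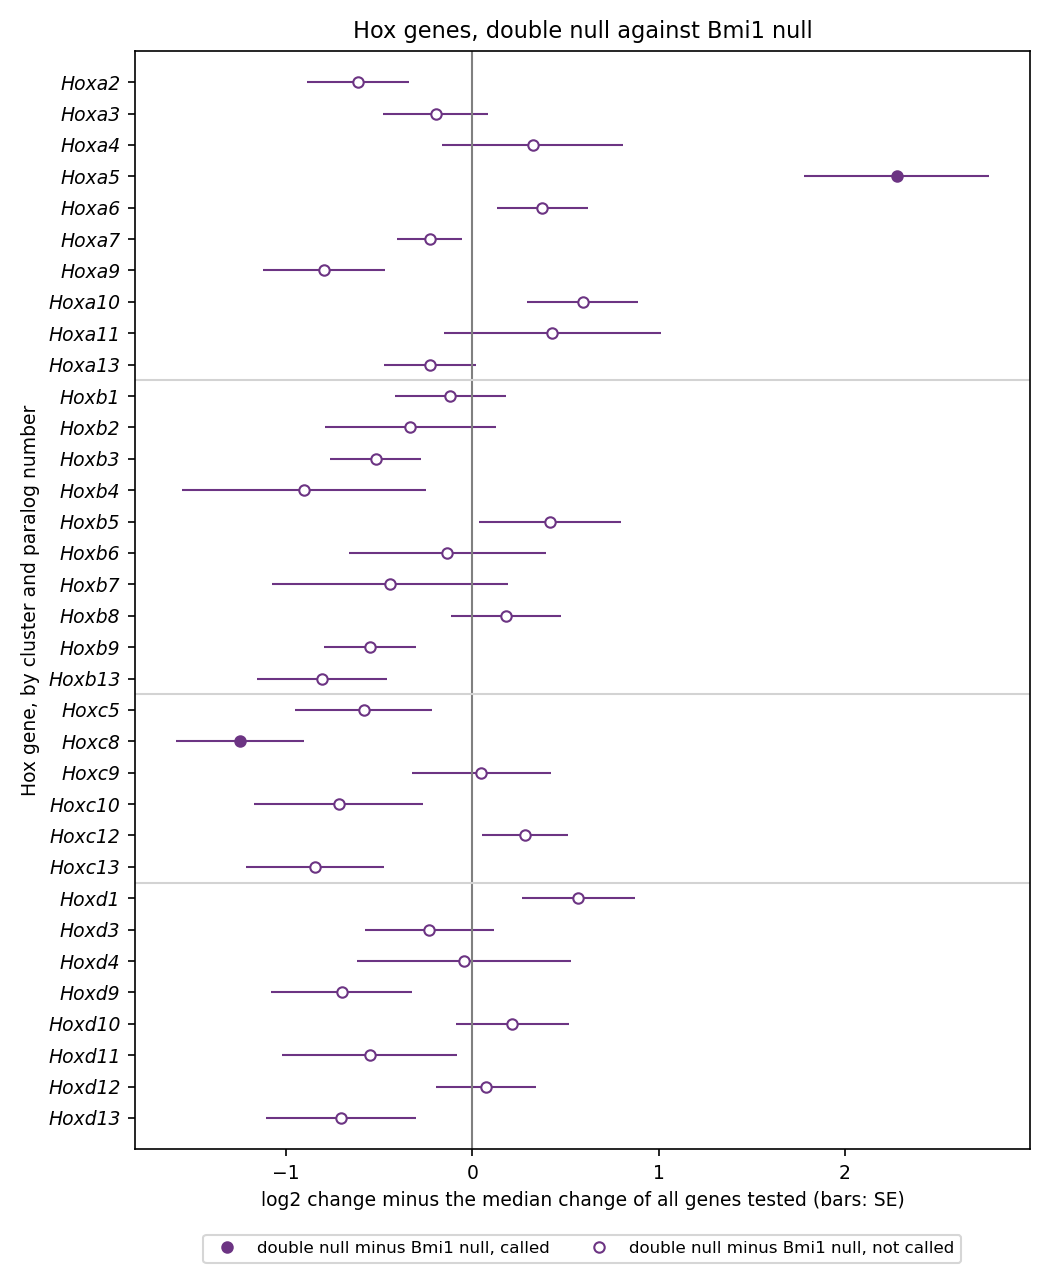
Change of each of the 34 tested Hox genes in double null against Bmi1 null, as log2 change minus the median change of all genes tested, with SE bars; filled points were called by limma. Hoxa5 at 2.28 and Hoxc8 at -1.25 are the called genes, and the other 32 are open and lie between -0.90 and 0.59.

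Hoxa5 rose in double null relative to Bmi1 null. From the values given above, 3 of 4 double null arrays were well above background and 0 of 4 Bmi1 null arrays, and double null replicate 4, at -5.99, lay below the highest Bmi1 null colony. The rise was at least 2.65-fold on the 75th percentile scale, with a relative change of 2.28 ± 0.50 (limma adjusted p = 0.0181, and 0.0106 on centred arrays). In the percentile ranks it went from between 5.73 and 13.7 to between 17.2 and 39.6, without overlap, and the wild-type colonies stood at 24.6 to 41.4. The call was close to the threshold. It was lost without Bmi1 null replicate 4 (adjusted p = 0.0555), without double null replicate 2 (adjusted p = 0.0508) and at the limit without double null replicate 3 (adjusted p = 0.05), with slide as a fixed term (adjusted p = 0.173), with only these 2 genotypes fitted (adjusted p = 0.0742) and with normexp background correction (adjusted p = 0.121). Within slides the difference was 3.76 on slide 2 (1 array each) and 0.73 on slide 4 (2 double null and 1 Bmi1 null).

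Hoxc8 was called lower in double null at -1.25 ± 0.34 (limma adjusted p = 0.0352), but its probe was not well above background on any array of either mutant, so no fold is given. The call was lost in the authors' values (adjusted p = 0.38), with slide as a fixed term (0.287), with the replicate number as a block (0.0901), with only these genotypes fitted (0.112) and without any of Bmi1 null replicates 2, 3 or 4 or double null replicates 2, 3 or 4 (0.0518 to 0.1). With normexp its direction turned, to 0.51 (adjusted p = 0.277). For the uncalled genes the fit had a median SE of 0.35, and for Hoxa3 the difference was -0.19 ± 0.28 and for Hoxd12 0.07 ± 0.27. Hoxb4, at -0.90 ± 0.66, had the widest error of the 34.

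**Figure D4:**
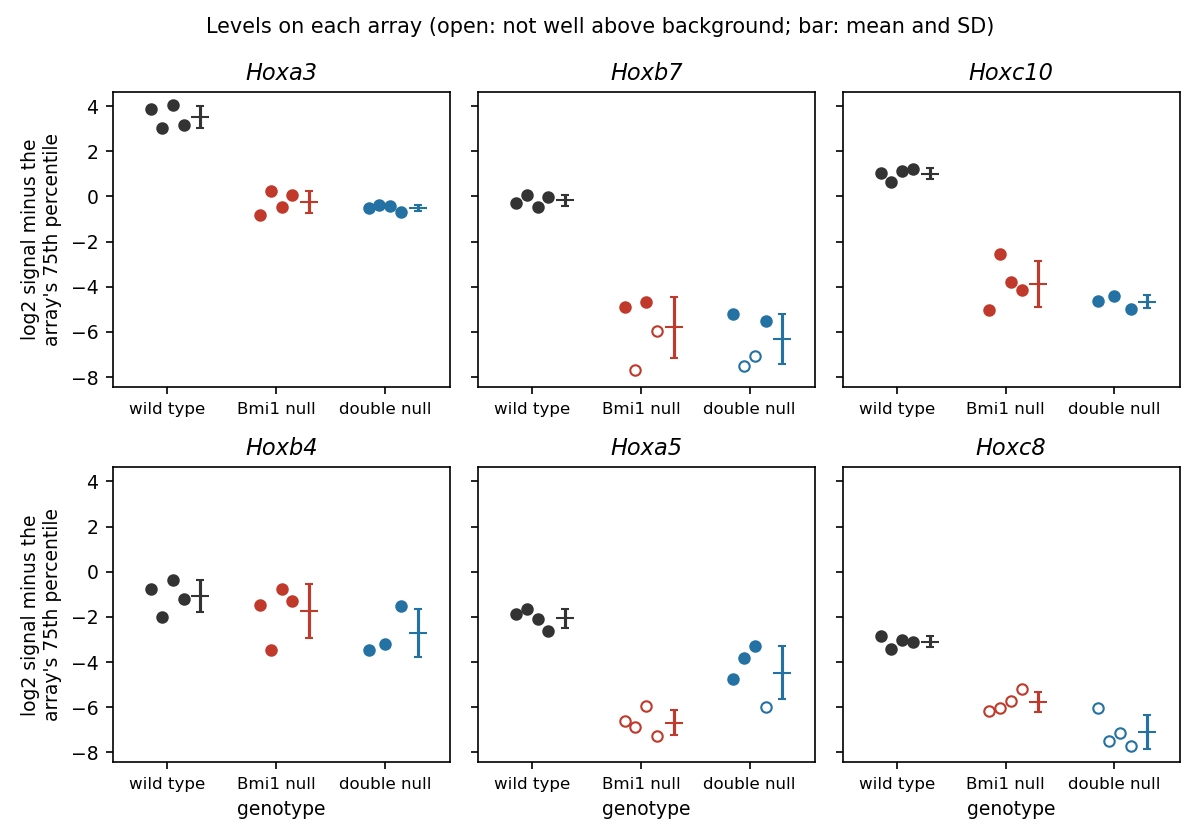
Level of 6 Hox genes on each array, as log2 signal minus the 75th percentile of the array, by genotype; open points are not well above background, and the bar gives mean and SD of 4 arrays (3 for Hoxb4 and Hoxc10 in double null). Hoxa3, Hoxb7 and Hoxc10 separate wild type from both mutants, Hoxb4 overlaps in all genotypes, Hoxa5 lies between -7.28 and -5.95 in Bmi1 null and between -5.99 and -3.29 in double null, and Hoxc8 is open on all mutant arrays.

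Genes that work with or lie beside the Hox genes gave mixed or higher counts. Over all genes tested, 25.2% were called higher and 58.3% lower in Bmi1 null, and 25.5% and 59.9% in double null. Between the mutants these shares were 2.75% and 4.8%. Of the 9 Hox cofactors tested, the Pbx, Meis and Pknox proteins that bind DNA with Hox proteins, 3 were called higher and 3 lower in Bmi1 null, 5 higher and 3 lower in double null, and 0 between the mutants (limma). Meis1 was at 3.34 and Pbx2 at 3.13 relative to all genes in Bmi1 null, while Pknox2, detected above background in 2 of 4 Bmi1 null colonies, was at -4.17. Of the 10 trithorax group genes tested, activators that oppose Polycomb at Hox clusters, 8 were called higher and 0 lower in Bmi1 null (relative median 2.65) and 9 higher and 0 lower in double null (2.95). They included Ash1l at 3.14 and Dpy30 at 3.11 in Bmi1 null. Of 30 genes that lie beside the Hox clusters, 13 were higher and 8 lower in Bmi1 null (relative median 1.66) and 17 higher and 10 lower in double null (2.17). Mtx2, beside cluster d, was at 3.83 in Bmi1 null and 4.08 in double null, and Tax1bp1, beside cluster a, at 3.67 and 3.62. None of 13 listed antisense and noncoding genes of the clusters was tested, and without the strand of the labelled cDNA, sense and antisense transcripts of a cluster cannot be told apart.

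Other homeobox genes differed by list. All 6 ParaHox and Cdx genes, sister genes of the Hox clusters that act in gut and trunk, were called lower in both mutants, with relative medians of -2.04 and -1.90. Pdx1 was at -2.51 in Bmi1 null, while Cdx4 was not well above background on any Bmi1 null array. Of 20 homeobox genes of jaw and tooth, 7 were called higher and 12 lower in Bmi1 null and 3 higher and 11 lower in double null, with relative medians of 0.08 and -0.05. The shares called lower are near the 58.3% and 59.9% of all genes. Pitx1, of incisor and jaw, was at 4.00 in Bmi1 null (adjusted p = 0.029), and Barx1, of molar mesenchyme, was called lower there but was not well above background on any Bmi1 null array. Between the mutants 2 of the 20 were lower and 0 higher, Dlx3 at -2.90 (well above background on 1 of 4 double null arrays) and Msx2 at -1.50. These lists share the wild-type arrays and the same scaling.

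Genes with no known role in the incisor fell too. The shares of all genes called lower were again 58.3% in Bmi1 null and 59.9% in double null. Of 875 olfactory receptor genes tested, which serve smell and are not expected in these cells, 869 were called lower and 0 higher in Bmi1 null and 874 lower and 0 higher in double null, with relative medians of -2.30 and -2.33. Their median percentile was 54.9 to 59.2 on wild-type arrays, 22.9 to 26.4 on Bmi1 null arrays and 21.6 to 25.2 on double null arrays. The 34 tested Hox genes, at 54.2 to 59.6, 31.7 to 35.6 and 28.5 to 34.9, covered the same wild-type range and stood above the receptors in both mutants. Of 27 transcription factors that mark lineages of other tissues, such as Nkx2-2 and Hand1, 25 were called lower in Bmi1 null and 26 in double null, with relative medians of -0.74 and -0.81, and 0 were higher. The part of this shift of genes foreign to the tissue in the Hox result was not tested.

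Immune, endothelial and glial, neural and melanocyte markers moved along, while mesenchymal markers were mixed. Over all genes tested, 58.3% were called lower and 25.2% higher in Bmi1 null, and 59.9% and 25.5% in double null. In the 2 mutants the relative medians were -1.56 and -1.31 for immune and -1.19 and -0.89 for endothelial markers. They were -0.79 and -0.70 for glial, neural and melanocyte markers and 2.61 and 2.93 for epithelial markers. All 9 immune markers tested were lower in both mutants, with a summed level (log2 of the summed signal, on the same scale) of 2.95 to 3.32 for wild type, -0.03 to 0.33 for Bmi1 null and -0.28 to 0.62 for double null. Adgre1 (detected above background in 2 of 4 Bmi1 null colonies) was at -4.11 and Tyrobp at -4.12 relative to all genes in Bmi1 null. All 7 endothelial markers were lower, with summed levels of 1.43 to 1.85, -0.85 to -0.20 and -0.75 to 0.15. All 8 glial, neural and melanocyte markers were lower in Bmi1 null and 7 in double null, with summed levels of 3.79 to 4.10, 2.12 to 2.40 and 2.28 to 2.37. Of 12 mesenchymal markers, 1 was higher and 6 lower in Bmi1 null and 1 higher and 5 lower in double null, with summed levels of 3.60 to 3.89, 2.33 to 3.37 and 2.56 to 5.36. Their relative medians were 0.11 and 0.54, and the shares called lower were under those of all genes. Of the 13 epithelial markers 12 were higher in Bmi1 null and 13 in double null, with summed levels of 7.38 to 8.87, 9.10 to 9.52 and 9.05 to 9.95. On the mutant arrays 7 to 9 of the 9 immune and 5 to 7 of the 7 endothelial markers were still well above background. Over all spots the mean share was 82.5% in Bmi1 null and 80.0% in double null, so these counts do not show that such cells were present. Whether cells of these types had a part in the Hox result was not tested.

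**Figure D5:**
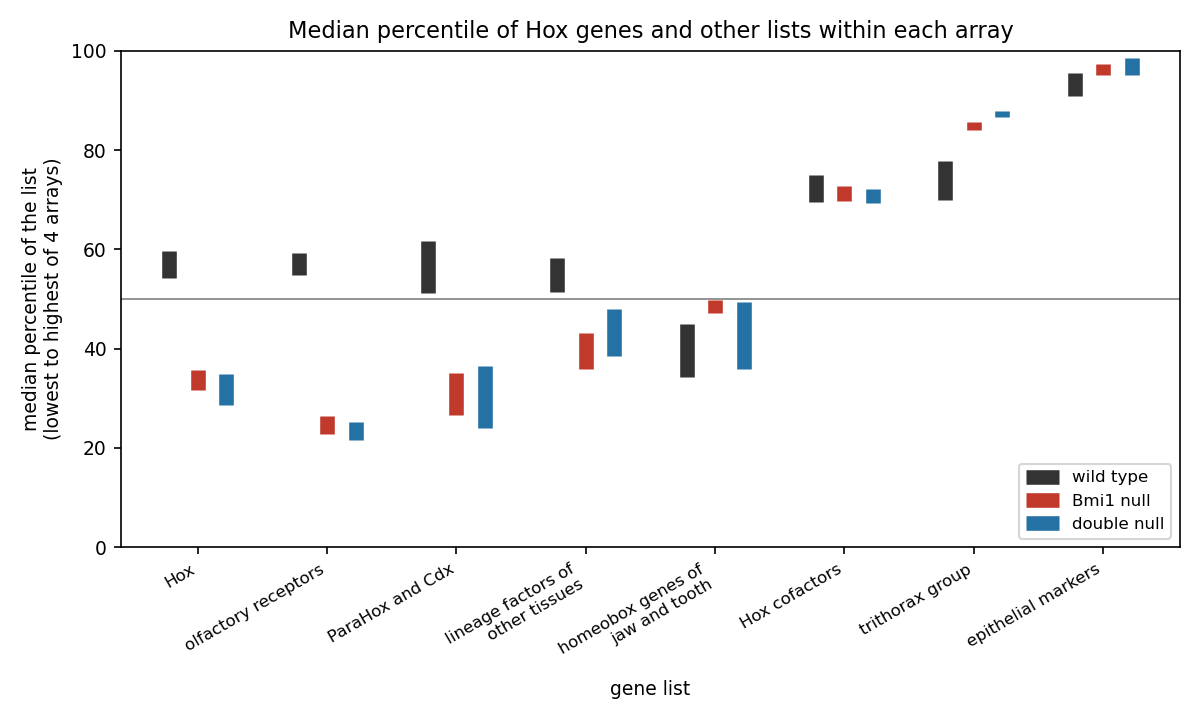
Median percentile within each array of the Hox genes and 7 other lists, drawn as the range from the lowest to the highest of the 4 arrays of each genotype; the grey line is the 50th percentile. Hox genes and olfactory receptors start near each other in wild type, at 54.2 to 59.6 and 54.9 to 59.2, and both drop below 36 in the mutants, while trithorax genes and epithelial markers rise.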

How the data were processed

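Members, gene lists and tests were chosen with earlier results of these data known. RNA was amplified with a whole transcriptome kit and labelled with Cy3, per the labels. The authors extracted the scans with Feature Extraction 10.7.3.1 (protocol GE1_107_Sep09), per the file headers, and the deposited unit is the processed intensity, background-subtracted and linear. No source used here gives the strand of the labelled cDNA. The authors' deposited table holds processed values on a log2 scale (column medians 7.21 to 7.24), made by a method not given in the sources used here.

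Intensities were log2-transformed and the 75th percentile of each array subtracted. Control spots and outlier-marked spots were left out, and spots of 1 probe averaged. Probes well above background on at least 3 of 4 arrays of a genotype were kept (39338 of 41174), and the brightest probe over all arrays stood for a gene. Accessions were matched without versions to RefSeq (GRCm38.p6): 24844 probes had a symbol and 16330 kept the array's name. The model had 1 mean for each genotype over all 12 arrays (lmFit and eBayes of limma 3.58.1 in R 4.3.3; 9 residual degrees of freedom), with p-values adjusted by Benjamini and Hochberg over 31064 genes and calls at 0.05. The script was tested on simulated data. Every-sample values are given for the brightest member of each cluster, the up to 6 called members with the largest change per contrast, and those of the 6 brightest members that were well above background on at least 3 of 4 arrays of every genotype. Members not called or not tested, Bmi1 and Cdkn2a are named always, and up to 3 called genes of each other list. The outlier marks of double null replicate 1 (1336 spots, 55 to 132 on the others) removed 6 Hox values there, those of Hoxa10, Hoxb4, Hoxb13, Hoxc10, Hoxc12 and Hoxd1. Alternatives changed the scaling, background correction, dim-probe filter, probe rule, outlier spots, samples fitted and slide or replicate blocks.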

Additional observations from a re-analysis of the deposited data

Results flagged for a closer look

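Each Hox gene was checked for a colony that stood far from the other 3 of its genotype (Dixon's test, 96 groups of 4). It marked 5 groups, and chance marks about 1 in 20. Hoxa2 in Bmi1 null replicate 2 read -2.82, above the others at -3.57 to -3.45. Hoxa11 in double null replicate 1 read -5.10, above the others at -7.66 to -7.24. Hoxa6 in wild-type replicate 5 read -0.44, below the others at 0.07 to 0.16. Hoxb5 in wild-type replicate 3 read -1.36, below the others at -0.80 to -0.70. Hoxb13 in Bmi1 null replicate 2 read -2.66, below the others at -1.59 to -1.39.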

How the results depend on the processing

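In each mutant 22 genes were called lower than wild type on all 6 scales, which is how those genes were picked. Calls between the mutants rested on dim probes and few colonies. Normexp on the mean signal was not run, as the files hold the spot median only. Its median-signal version and the centred arrays were chosen after seeing the data.

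For Bmi1 null minus wild type, 1 Hox gene was called higher with quantile normalization and 1 in the authors' values. With the filter on all 12 arrays 16 of 16 were called lower, against 9438 of all 21344 genes. The relative median was -0.71 with normexp, -1.02 in the authors' values, -2.15 with the filter on all 12 arrays and -1.66 with probes averaged, and -1.68 to -1.40 with a replicate left out. For double null minus wild type, 16 of 16 were lower with that filter, against 9769 of all 21344 genes. The median there was -1.51 with quantile normalization, -0.90 with normexp, -1.10 in the authors' values and -2.67 with that filter. It was -1.61 with outlier spots kept and -1.63 with slide as a fixed term. Between the mutants, 0 genes were higher and 0 lower with normexp, with that filter, with only those genotypes fitted and with slide as a fixed term, and 0 lower in the authors' values. With a replicate left out, 0 to 1 were higher and 0 to 2 lower, adding Hoxb3 and Hoxb13 without Bmi1 null replicate 2 and Hoxc13 without double null replicate 1. The median was 0.12 with normexp and -0.053 in the authors' values. Causes were not tested.

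The direction of single genes (change before the shift is taken off) reversed as follows. In Bmi1 null, quantile normalization gave Hoxa2 0.33, Hoxb2 0.42, Hoxb8 0.063 and Hoxc13 1.32, and the authors' values gave Hoxa2 0.048, Hoxb2 0.064 and Hoxc13 0.38. In double null, quantile normalization gave Hoxb2 0.097, Hoxb8 0.25 and Hoxc13 0.58, the authors' values Hoxb8 0.069 and Hoxc13 0.18, and Hoxa6 was 0.11 with median scaling and 0.33 on centred arrays. Between the mutants Hoxc8 was 0.51 with normexp. Of all calls, 30.1%, 29.9% and 36.4% were higher in the 3 comparisons, against 47.1%, 46.4% and 46.7% with median scaling.

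Deviations of same-numbered samples correlated weakly, at r of -0.141 to 0.216 over 10 pairs, 3 of them over 0.1. Other pairs between genotypes ran from -0.233 to 0.218 over 38 pairs, 5 of them over 0.1. With so few pairs, whether the numbers pair colonies cannot be told. With the replicate block the relative medians were -1.48, -1.76 and -0.23, and 0 Hox genes were lower between the mutants.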
